A study of Mus musculus with 15 samples.

Results

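The comparison is between the 5 arrays labelled doxorubicin + sAcvR2B-Fc (Dox + sACVR2B) and the 5 labelled PBS (Ctrl), 10 of the 15 arrays of the series, and it was made over 11457 genes measured above noise. Each array stands for a separate male mouse without a tumour, of strain C57BL/6 and 8 to 10 weeks old by its label (C57BL/6J in the study's methods), and carries RNA of tibialis anterior (TA), a fast muscle of the lower leg. Mice of the Dox + sACVR2B label are described as given 10 mg/kg of sACVR2B-Fc 48 hours ahead of 15 mg/kg of doxorubicin, and those of the Ctrl label as given PBS alone, with muscles taken 20 hours after the doxorubicin or PBS. The remaining 5 arrays, labelled Dox, are described as doxorubicin alone and are cited only for their levels. The comparison therefore spans both agents together and separates neither. The labels are in doubt for reasons given with the Cdkn1a values, and every direction below is a direction between labels.

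Doxorubicin is an anthracycline that poisons topoisomerase II and breaks DNA, and cells answer such breaks through p53, which switches on genes of cell cycle arrest, repair and apoptosis. sACVR2B-Fc is the ligand-binding part of the activin receptor ACVR2B joined to an antibody Fc. It traps myostatin, activins and GDF11, which otherwise signal through SMAD2 and SMAD3 and restrain muscle growth, and its best known outcome in mouse muscle is hypertrophy with raised protein synthesis.

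Cdkn1a, which encodes p21 and is the textbook p53 target, had a signal of 4300.7, 294.5, 187.3, 4056.8 and 4634.2 in Ctrl 1 to 5 and of 4560.3, 4046.7, 3622.6, 209.1 and 358.8 in Dox + sACVR2B 1 to 5 (brightest probe, linear scale). Under each label 3 arrays were thus above the dividing value of 1000 and 2 were below it, and no array lay between 358.8 and 3622.6. Doxorubicin is known to induce this gene in muscle, and PBS is not, so arrays labelled PBS at 4056.8 to 4634.2 and arrays labelled Dox + sACVR2B at 209.1 and 358.8 go against their labels, and the labels are in doubt. In the arrays labelled Dox the signal was 2359 to 4013.2 in 4 arrays and 131.6 in Dox 2. No array was moved, renamed or left out, and Cdkn1a status (signal of at least 1000, yes or no) entered a further fit as a covariate. Because the status is divided alike under both labels, the log2 difference of a gene is the same with and without it, and only the error changes. The mean log2 level of Cdkn1a itself was 10.52 ± 2.16 under Ctrl and 10.54 ± 2.02 under Dox + sACVR2B (SD, n = 5 each).

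**Figure D1:**
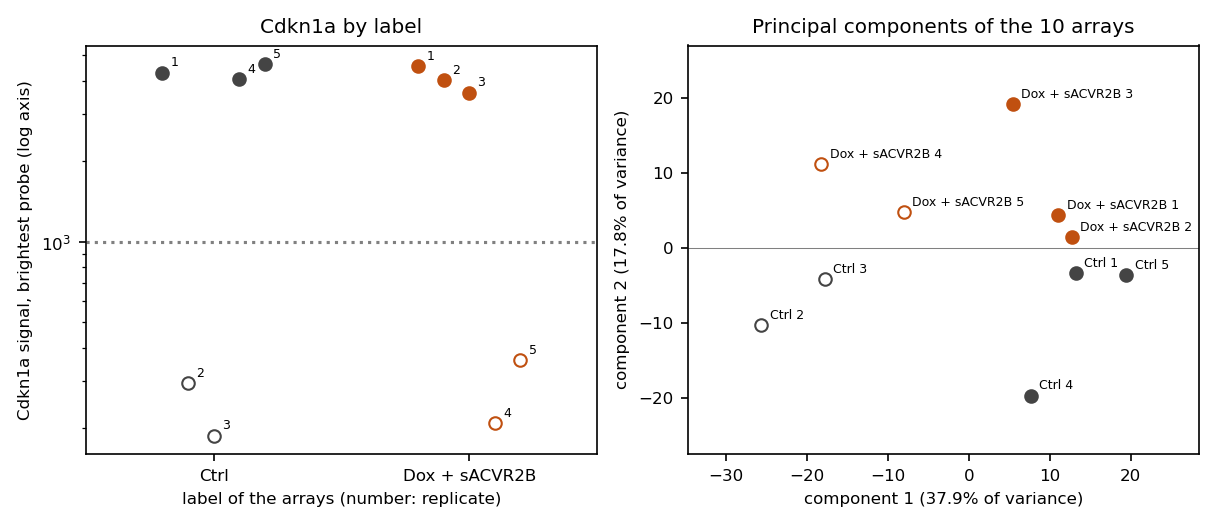
Left: Cdkn1a signal of the brightest probe on a log axis for the 5 Ctrl and 5 Dox + sACVR2B arrays, with the replicate number beside each point, filled at 1000 or more and open below the dotted line at 1000. Right: scores of the same arrays on principal components 1 and 2 of 11457 genes, where open and filled points part along component 1 and the labels lie on either side of 0 on component 2.

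In a principal component analysis of the 10 arrays, component 1 held 37.9% of the variance and ordered the arrays by Cdkn1a status, with scores of -25.6 to -8.06 in the 4 low arrays and 5.45 to 19.4 in the 6 high arrays. Component 2 held 17.8%. Its scores were below 0 in all 5 Ctrl arrays (-19.7 to -3.3) and above 0 in all 5 Dox + sACVR2B arrays (1.5 to 19.2), the outermost being Ctrl 4 and Dox + sACVR2B 3. These scores are a description of the arrays and carry no test. Pearson correlations between arrays across genes were 0.973 to 0.994 within a label (20 pairs) and 0.976 to 0.995 between the labels (25 pairs).

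No gene passed the threshold. At an adjusted p under 0.05 limma called 0 of 11457 genes by label (0%) and 0 of 11456 with Cdkn1a status as covariate (0%), where Cdkn1a is left out. The smallest adjusted p was 0.437 by label and 0.173 with the status. Unadjusted p-values under 0.05 were found for 1032 genes by label (9.01%), of which 530 were higher (4.63%) and 502 lower (4.38%) under Dox + sACVR2B. With the status they were found for 1517 genes (13.2%), 770 higher (6.72%) and 747 lower (6.52%). The levels of the labels did not overlap for 221 genes (1.93%), 106 higher (0.925%) and 115 lower (1%). Within both the high and the low arrays they did not overlap for 593 genes (5.18%), 310 higher (2.71%) and 283 lower (2.47%). A fold of at least 1.5 between the means was reached by 62 genes (0.541%), 28 higher (0.244%) and 34 lower (0.297%). Differences were above 0 for 5609 genes (49%) and below 0 for 5848 (51%), and had the same sign among the high and among the low arrays for 6749 (58.9%). The median absolute log2 difference was 0.098, the 90th percentile 0.263, and the range ran from -1.82 (Chac1) to 1.05 (Zmiz1, 0.15 by the median over its probes). The median standard error of a difference was 0.114 by label and 0.101 with the status. The median residual SD was 0.183 by label and 0.161 with the status. Since no gene passed, higher and lower below describe means and not calls. Besides the 20 genes of smallest p, the genes the study followed and the 2 members of smallest p in each list, genes were named after their values were seen.

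The 10 genes of smallest p on the higher side in the fit with Cdkn1a status had folds of 1.32 to 1.52. All had an adjusted p of 0.173 in limma and did not pass. Being picked by p in these arrays, their separation is a description. Hsf4, a heat shock transcription factor best known from the lens, read 6.83, 6.71, 6.48, 6.63 and 6.81 in Ctrl 1 to 5 and 7.24, 7.18, 7.28, 7.03 and 7.02 in Dox + sACVR2B 1 to 5 (log2 of signal + 50, as all levels below). Every Dox + sACVR2B array stood above every Ctrl array, and the log2 difference was 0.46 with a standard error (SE) of 0.08 in the fit with status. Denr, a factor of translation re-initiation, read 7.73, 7.54, 7.56, 7.56 and 7.61 under Ctrl and 8.06, 7.95, 8.13, 7.95 and 7.91 under Dox + sACVR2B, again without overlap and with a log2 difference of 0.40 (SE 0.08). Pkdcc, a secreted protein kinase, differed by 0.53 (10.22 ± 0.18 against 10.75 ± 0.11, SD, n = 5 each), and Ap2a1, a subunit of the clathrin adaptor AP-2, by 0.51. Nabp2, a single-strand DNA-binding protein of the repair of DNA breaks, differed by 0.50 (SE 0.09). Egln2, a prolyl hydroxylase that marks HIF for breakdown, differed by 0.47, Pex11a, which acts in peroxisome division, by 0.44, and Gadd45gip1, a protein of the mitochondrial ribosome, by 0.41. With the median over the probes of a gene in place of the brightest probe, Gadd45gip1 was at 0.08, Denr at 0.24 and Pex11a at 0.28. Of the 10 genes, the levels overlapped for the last 2. Slc41a3, of a family of magnesium transporters, read 9.40, 10.18, 10.00, 9.15 and 9.15 under Ctrl and 9.87, 9.63, 10.21, 10.63 and 10.57 under Dox + sACVR2B. In this gene the 4 arrays low in Cdkn1a were the highest of their label, and the difference was 0.67 among the high arrays and 0.51 among the low arrays. G6pc3, a widely expressed glucose-6-phosphatase, differed by 0.48.

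On the lower side the 10 genes of smallest p had folds of 1.28 to 1.84, also with an adjusted p of 0.173 in limma. Cxcl9, a chemokine induced by interferon gamma, read 7.36, 7.18, 7.72, 7.37 and 7.32 under Ctrl and 6.87, 6.84, 6.42, 6.75 and 6.81 under Dox + sACVR2B. The labels did not overlap, the log2 difference was -0.65 (SE 0.12), and it was -0.64 among the high and -0.67 among the low arrays. Kit, the receptor of stem cell factor, read 7.60, 8.29, 7.81, 7.52 and 6.69 under Ctrl and 6.25, 6.65, 6.45, 7.29 and 6.87 under Dox + sACVR2B, a difference of -0.88 (SE 0.17). Here Ctrl 5 lay within the range of the other label. Notch4, a Notch receptor of vessel endothelium, differed by -0.73 (10.56 ± 0.39 against 9.83 ± 0.15, SD, n = 5 each), Bcl6b, a transcriptional repressor, by -0.69 and Chst7, a sulfotransferase of glycosaminoglycans, by -0.69. Kmt2e, a chromatin protein, differed by -0.67, Csnk1g1, a casein kinase, by -0.56, and Esam, an adhesion molecule of endothelial junctions, by -0.50. Mafk, a small Maf protein that pairs with NRF2 and other factors, differed by -0.46 and Bcl10, an adaptor of NF-kB signalling, by -0.36. The levels of Mafk in Dox + sACVR2B 1, 3 and 4 (5.89, 5.73 and 5.86) were below noise. Of these 10 genes 7 did not overlap between the labels, the exceptions being Kit, Csnk1g1 and Bcl6b. By the median over probes Notch4 was at -0.34, Kmt2e at -0.40, Csnk1g1 at -0.37 and Bcl10 at -0.23, and with an offset of 100 Mafk was at -0.27. In the fit with status the absence of calls depended on Ctrl 5. By label 0 genes were called without that array as well (smallest adjusted p 0.194 in limma). Without that array the fit with status called 4 genes, all lower under Dox + sACVR2B: Gm5796 (log2 difference -1.14), Kit (-1.04), Pcdh12 (-1.05), a protocadherin of endothelial cells, and Bcl6b (-0.83), with adjusted p of 0.027 to 0.0452 in limma. Gm5796 and Pcdh12 were named after their values were seen.

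**Figure D2:**
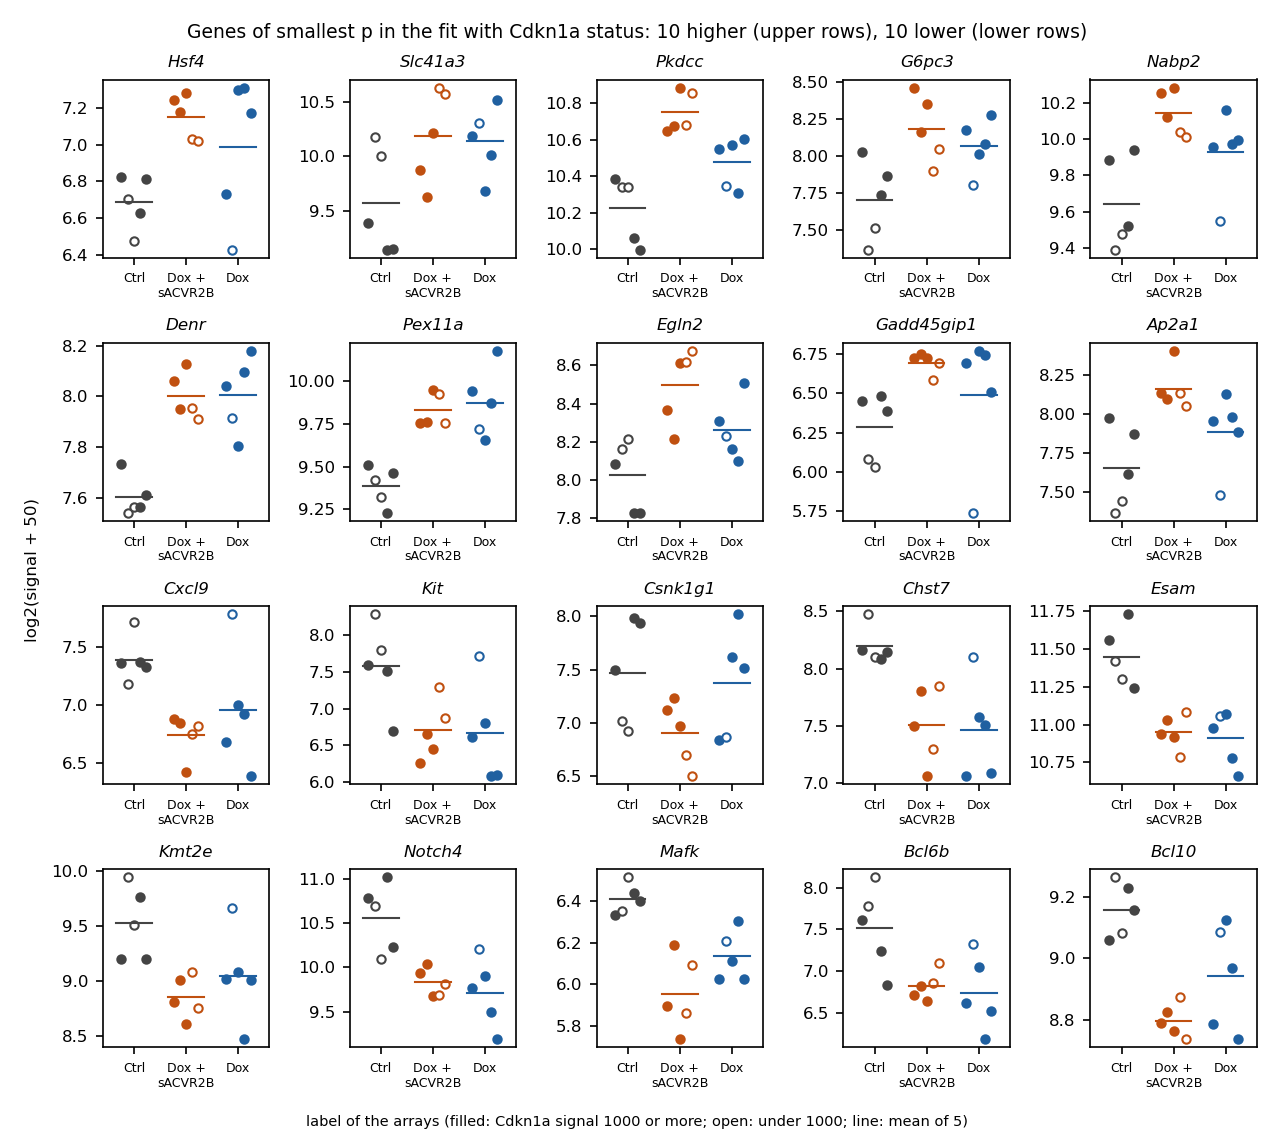
Level of each array, as log2(signal + 50), for the 10 genes of smallest p that were higher (upper rows) and the 10 that were lower (lower rows) under Dox + sACVR2B than under Ctrl, with the Dox arrays beside them. Filled points are arrays with a Cdkn1a signal of at least 1000, open points those below, and lines the mean of 5 arrays. Points of the 2 labels compared are fully apart in 8 of the 10 upper and 7 of the 10 lower panels.

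Endothelial genes stood lower under the Dox + sACVR2B label. Of 12 endothelial markers, all measured, 10 were below 0 and 2 above (51% of all genes tested were below 0), with a median log2 difference of -0.16 where the median over all genes was -0.0035. None was called, 5 of the 12 had an unadjusted p under 0.05 on the lower side (6.52% of all genes with status) and 2 did not overlap (1% of all genes). Esam read 11.56, 11.42, 11.30, 11.73 and 11.24 in Ctrl 1 to 5 and 10.94, 11.03, 10.92, 10.79 and 11.09 in Dox + sACVR2B 1 to 5. Its difference was -0.55 among the high and -0.43 among the low arrays. Cdh5, the VE-cadherin of endothelial junctions, read 10.74, 10.93, 10.57, 11.05 and 10.12 against 10.19, 10.08, 9.85, 10.12 and 10.20, a difference of -0.59 (SE 0.15, adjusted p = 0.174 in limma with status) with Ctrl 5 inside the range of the other label. Tek, the angiopoietin receptor TIE2, did not overlap and differed by -0.28 (9.90 ± 0.13 against 9.62 ± 0.07, SD, n = 5 each). Cldn5, the claudin of endothelial tight junctions, differed by -0.40 (SE 0.09) and Egfl7, a protein secreted by endothelium, by -0.30. Pecam1 (-0.05), Flt1 (-0.004), Vwf (0.05) and Kdr (0.07), which define the same cells, were close to 0. Of these, Kdr was not above noise in all 10 arrays, and the offset compresses differences of such genes. Other genes known from endothelium had larger differences than most of the list and were picked once these were known. Gpihbp1, which anchors lipoprotein lipase in capillaries, did not overlap and differed by -0.64 (9.91 ± 0.46 against 9.26 ± 0.19, SD, n = 5 each), Cd93 by -0.73, and Igfbp3, a binding protein of IGFs, by -0.95. The summed signal of the 12 markers was 17095 to 21910 in the Ctrl arrays (median 19896), 15027 to 17690 in the Dox + sACVR2B arrays (16649) and 14620 to 17868 in the Dox arrays (15272). In whole muscle, fewer cells of a type and less RNA per cell cannot be told apart. The 10 skeletal muscle markers were also lower in 9 of 10, with summed signals of 178178 to 201111 under Ctrl and 170084 to 181173 under Dox + sACVR2B, and their part in the endothelial values was not tested.

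Chac1, a glutathione-degrading enzyme that ATF4 induces in the unfolded protein response, had the lowest difference of all genes. Its promoter is shown with those of Asns, Trib3 and Atf3 because all 4 hold the letters of an ATF4-type element, here TGATGNAA or its reverse complement TTNCATCA, given in capitals. Sequences run 5′ to 3′ along the gene, from 250 bases before to 50 after its start, from RefSeq on GRCm38.p6.
Chac1 promoter (chr2:119350992-119351291, plus strand): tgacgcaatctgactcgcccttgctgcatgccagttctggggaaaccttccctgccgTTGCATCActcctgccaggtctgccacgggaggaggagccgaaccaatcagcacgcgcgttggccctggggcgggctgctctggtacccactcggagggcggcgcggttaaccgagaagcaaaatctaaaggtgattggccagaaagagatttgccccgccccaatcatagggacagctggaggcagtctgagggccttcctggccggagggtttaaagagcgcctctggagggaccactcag
Asns promoter (chr6:7693160-7693459, minus strand): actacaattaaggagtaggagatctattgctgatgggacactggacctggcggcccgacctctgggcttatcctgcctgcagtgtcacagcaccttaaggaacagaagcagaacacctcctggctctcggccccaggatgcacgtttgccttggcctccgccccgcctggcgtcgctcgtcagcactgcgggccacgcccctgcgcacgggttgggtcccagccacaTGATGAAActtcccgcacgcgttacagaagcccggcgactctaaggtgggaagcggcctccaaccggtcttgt
Trib3 promoter (chr2:152344011-152344310, minus strand): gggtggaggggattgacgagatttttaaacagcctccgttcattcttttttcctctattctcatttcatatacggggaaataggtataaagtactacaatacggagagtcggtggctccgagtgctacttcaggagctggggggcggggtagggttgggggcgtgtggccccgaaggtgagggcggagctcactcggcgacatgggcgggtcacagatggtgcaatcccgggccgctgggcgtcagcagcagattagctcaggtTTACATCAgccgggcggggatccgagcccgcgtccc
Atf3 promoter (chr1:191183284-191183583, minus strand): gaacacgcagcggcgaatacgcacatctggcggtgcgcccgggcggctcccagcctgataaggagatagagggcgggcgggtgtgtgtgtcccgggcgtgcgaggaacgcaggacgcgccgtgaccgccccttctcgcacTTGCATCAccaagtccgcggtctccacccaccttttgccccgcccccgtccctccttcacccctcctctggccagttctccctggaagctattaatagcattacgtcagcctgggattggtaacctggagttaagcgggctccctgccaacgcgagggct
Searched on both strands, with overlapping matches counted, the motif was found in 3.97% of 32851 promoters of this length and in 7 of the 24 measured members of the ATF4 and unfolded protein response list that had a promoter entry. The first share counts promoter entries, whereas a member counted if any of its entries matched, so these shares are not counted alike. The members were listed as genes of this response. A match is only a description of letters.

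Chac1 read 12.40, 11.73, 11.79, 12.82 and 13.12 in Ctrl 1 to 5 and 10.82, 11.72, 8.95, 9.51 and 11.74 in Dox + sACVR2B 1 to 5, a log2 difference of -1.82 (3.54-fold lower, SE 0.49 with status, adjusted p = 0.194 in limma), so it did not pass. Dox + sACVR2B 3 and 4 were far below all other arrays of the 2 labels, while Dox + sACVR2B 2 and 5 lay at the lower edge of the Ctrl range. The arrays labelled Dox read 9.20, 12.96, 12.18, 7.89 and 7.28 and spanned both ends. The difference was -2.28 among the high and -1.13 among the low arrays, and it was -2.27 to -1.34 when each array was left out in turn. The other 3 genes shown were close to 0. Asns, which makes asparagine, read 7.48, 8.21, 7.41, 7.66 and 7.21 under Ctrl and 7.64, 7.43, 7.02, 7.76 and 7.70 under Dox + sACVR2B, a difference of -0.08 with a 95% interval of -0.42 to 0.25. Trib3, a pseudokinase that restrains ATF4, differed by -0.09 (interval -0.28 to 0.10) and Atf3, a stress transcription factor, by -0.07 (interval -0.41 to 0.27). The list as a whole was centred near 0, with 12 of 25 measured members above 0, 13 below and a median of -0.02. Cebpg, a partner of ATF4, was at 0.34, but the median over its probes gave -0.04, so its direction depends on the probe.

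Targets of p53 were lower under Dox + sACVR2B in 18 of 26 measured genes, with a median log2 difference of -0.18, the lowest of the 38 list medians at the brightest probes, and -0.09 by the median over probes. None was called. With Cdkn1a status 11 had an unadjusted p under 0.05 on the lower side (6.52% of all genes) and 1 on the higher side (6.72%). By label alone these counts were 3 and 1. Cdkn1a belongs to this list and sets the status. For the members Ddit4 and Apaf1 the standard error fell from 0.43 and 0.33 by label to 0.11 and 0.14 with status. The median over all genes fell only from 0.114 to 0.101. The share of 6.52% over all genes is therefore not a like measure for the 11. Plk2, a polo-like kinase, read 8.32, 8.18, 8.46, 8.69 and 9.06 under Ctrl and 8.44, 7.94, 7.45, 7.54 and 8.03 under Dox + sACVR2B, a difference of -0.66 (SE 0.19, adjusted p = 0.206 in limma). Only Dox + sACVR2B 1 of its label lay inside the range of Ctrl. Sesn1, a sestrin that restrains mTORC1, differed by -0.47, Apaf1, the scaffold of the apoptosome, by -0.50, and Bbc3, which encodes the BH3 protein PUMA, by -0.44. By the median over probes Sesn1 was at -0.30 and Bbc3 at -0.05, and without Ctrl 5 Bbc3 was at -0.27, Gtse1 at -0.47 and Fas at -0.12. For Gtse1, a cell cycle protein that binds p53, the levels were 9.01, 9.27 and 10.24 in the 3 high Ctrl arrays and 8.47, 8.15 and 8.04 in the 3 high Dox + sACVR2B arrays, against 5.84, 5.43, 5.96 and 5.47 in the 4 low arrays. The levels in the low arrays were at noise, so a fall of Gtse1 among them could not be seen. The list's median difference was -0.27 among the high arrays and 0.0064 among the low arrays, and the difference between these was not tested. Gtse1 (-1.29 and 0.08), Polk, a polymerase that bypasses DNA lesions (-0.81 and 0.17), and Fas, the death receptor (-0.53 and 0.17), were below 0 only among the high arrays, while Plk2 (-0.75 and -0.53), Sesn1 (-0.53 and -0.39) and Plk3 (-0.36 and -0.59) were below 0 among both. Bcl6, a transcriptional repressor, was the only member with an unadjusted p under 0.05 on the higher side, at 0.33. Genes of apoptosis and caspases, which share Apaf1, Bbc3, Bax, Fas, Pmaip1 and Tnfrsf10b with this list, were below 0 in 21 of 28, with a median of -0.13. With status 6 were lower at an unadjusted p under 0.05 (6.52% of all genes), and 4 by label (4.38%). Apaf1 counts among both the 6 and the 11, so the share with status is again not a like measure. Among those 6, Bok, a BCL-2 family member, differed by -0.50, Casp6 by -0.34 and Casp2 by -0.31.

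**Figure D3:**
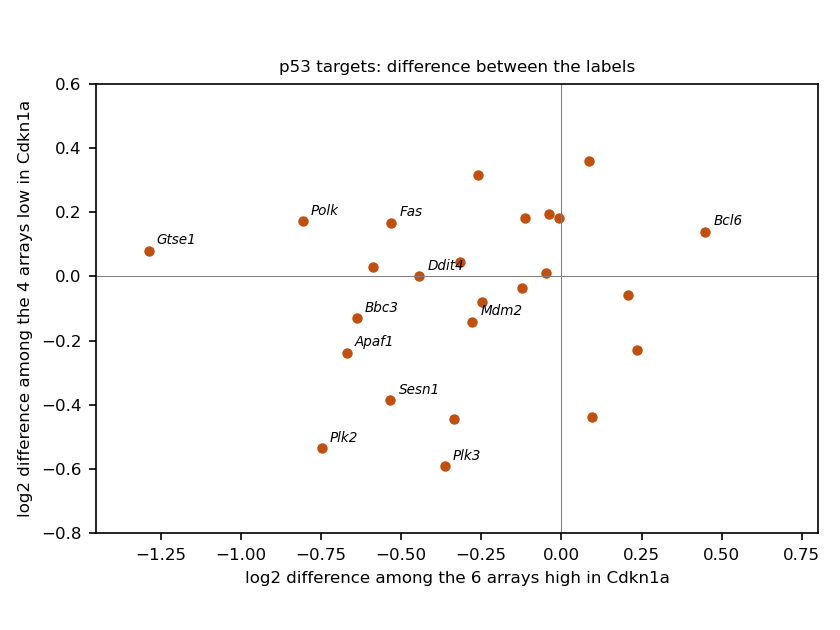
Log2 difference between the labels (Dox + sACVR2B minus Ctrl) for the measured p53 targets other than Cdkn1a, among the 6 arrays high in Cdkn1a (x axis) and the 4 arrays low in it (y axis), with 1 point per gene and no error shown. Points lie mostly left of 0 on the x axis and on both sides of 0 on the y axis, with Gtse1 at -1.29 and 0.08. The levels of Gtse1 in the 4 low arrays were at noise.

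Genes of activin and TGF-beta signalling, a list wider than the pathway that sACVR2B-Fc blocks, were centred near 0. The list holds activators and inhibitors alike, so its median does not give the activity of a pathway. In the activin and TGF-beta list the 24 measured genes had a median of -0.02, and 9 of them were above 0. With status, 1 was higher (6.72% of all genes) and 2 lower (6.52%) at an unadjusted p under 0.05. Among ligands, Mstn (myostatin) and Gdf11 were not above noise on these arrays and Inhba, a subunit of activin A, was at -0.004. Among receptors, Acvr2b, the native receptor whose soluble form was injected, read 10.11, 10.05, 10.28, 10.11 and 10.09 under Ctrl and 10.23, 10.06, 9.85, 10.18 and 9.97 under Dox + sACVR2B. The levels overlapped, and the difference was -0.07 (95% interval -0.27 to 0.13 with status). Tgfbr3, the co-receptor betaglycan, did not overlap between the labels, at 8.98 ± 0.10 against 8.60 ± 0.15 (SD, n = 5 each), a difference of -0.38 (SE 0.09, adjusted p = 0.173 in limma). Of the intracellular members, Smad2 was at -0.004 and Smad3 at 0.19, and Ski, a repressor of SMAD proteins, at 0.51, with 0.26 among the high and 0.89 among the low arrays, or 0.32 by the median over probes. Ccn2, a matrix protein induced by TGF-beta, was at -0.34. Of the inhibitors that bind activins, Fst (follistatin) was at 0.15 and was not above noise in all 10 arrays. In the BMP list 7 of 17 were above 0. Smad1, the transducer of BMP signals, read 10.05, 9.76, 9.87, 10.38 and 9.77 under Ctrl and 9.49, 9.75, 9.33, 9.26 and 9.73 under Dox + sACVR2B, barely without overlap, since Ctrl 2 and Dox + sACVR2B 2 nearly met, and differed by -0.45 (SE 0.13). Bmp6, a BMP ligand, was at 0.43 and Id2, a classical BMP target, at 0.37 (0.21 by the median over probes).

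Genes that the study followed in its acute experiment did not pass in either fit. The array results given in the study are for other comparisons, Dox against Ctrl and Dox + sACVR2B against Dox. It reported Foxo1, Ddit4, Ulk1 and Becn1 as raised by doxorubicin alone. The differences given here are therefore not a repeat of its results. Under the deposited labels, mean levels of Foxo1, Ddit4 and Ulk1 were not higher in the Dox arrays than in the Ctrl arrays. Means under Dox and Ctrl were 8.5021 and 8.5104 for Foxo1, 8.5337 and 8.7973 for Ddit4, and 9.7472 and 9.8995 for Ulk1. Becn1 was higher under Dox, at 8.8693 and 8.7504. The difference between Dox and Ctrl was not tested. Fbxo32, the muscle ubiquitin ligase atrogin-1, read 12.60, 11.27, 11.01, 12.73 and 13.07 under Ctrl and 11.68, 12.77, 12.08, 10.23 and 11.84 under Dox + sACVR2B, a difference of -0.41 with a 95% interval of -1.0 to 0.17. Ctrl 2 and 3 and Dox + sACVR2B 4, all low in Cdkn1a, were its lowest arrays. The difference was -0.71 without Dox + sACVR2B 5, -0.21 without Dox + sACVR2B 4 and -0.25 without Dox + sACVR2B 1. Trim63, the ligase MuRF1, was at -0.15 (interval -0.52 to 0.22), Foxo1, a transcription factor of both ligases, at -0.09 (-0.40 to 0.21), Ulk1, a kinase that starts autophagy, at -0.14 (-0.43 to 0.16) and Becn1 (Beclin 1) at 0.12 (-0.12 to 0.36). Ddit4, which encodes the mTORC1 inhibitor REDD1, read 9.43, 7.80, 7.71, 9.68 and 9.36 under Ctrl and 9.17, 9.02, 8.96, 7.93 and 7.59 under Dox + sACVR2B. It followed Cdkn1a status in all 10 arrays, and its difference of -0.26 (adjusted p = 0.342 in limma with status) was -0.44 among the high and 0.00 among the low arrays. Of 40 measured atrogenes taken from the list the study used, 16 were above 0 and 24 below, with a median of -0.05. With status 1 had an unadjusted p under 0.05 (13.2% of all genes). It was Nrep, a neuronal regeneration-related protein, at -0.34. Muscle ubiquitin ligases were above 0 in 5 of 16, with a median of -0.13 (-0.07 without Dox + sACVR2B 4).

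Ribosome biogenesis was among the lists that leaned higher. The median over its 34 measured genes was 0.06, and 23 of them were above 0. The median was -0.0003 among the high arrays and 0.16 among the low arrays, and ran from 0.028 without Ctrl 3 to 0.091 without Dox + sACVR2B 1. With status, 5 were higher (6.72% of all genes) and 1 lower at an unadjusted p under 0.05, and 3 did not overlap (0.925% of all genes on the higher side). Nop58, a core protein of box C/D snoRNPs that guide ribosomal RNA methylation, read 9.38, 9.08, 8.79, 8.72 and 9.29 in Ctrl 1 to 5 and 9.42, 9.60, 9.94, 9.60 and 9.48 in Dox + sACVR2B 1 to 5, a difference of 0.55 (SE 0.14, adjusted p = 0.173 in limma). Nop56, its partner in the same particle, read 7.52, 7.55, 7.50, 7.41 and 7.45 against 7.77, 7.71, 8.15, 7.86 and 7.90, a difference of 0.39 (SE 0.09). Both genes were without overlap, and both were also high in arrays labelled Dox, with means of 9.44 and 7.84. Rrn3, the initiation factor of RNA polymerase I, did not overlap either and was at 0.26. Pes1, of the large subunit pathway, was at 0.33, whereas Polr1a and Polr1b, the polymerase subunits, were at -0.03 and 0.12, and Nop14 at -0.30.

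In the list of amino acid transport and branched-chain breakdown, 2 of 24 measured genes did not overlap on the higher side (0.925% of all genes). Bcat2, the mitochondrial transaminase that opens their breakdown, read 9.60, 9.73, 9.41, 9.13 and 9.50 under Ctrl and 9.82, 10.08, 10.35, 9.76 and 9.98 under Dox + sACVR2B. It did not overlap and differed by 0.52 (SE 0.13, adjusted p = 0.174 in limma). The mean of the Dox arrays was 9.64. Dbt, a subunit of the branched-chain ketoacid dehydrogenase, was at 0.41 (0.21 by the median over probes), and Mccc2, of leucine breakdown, at 0.30 without overlap. The list of 24 genes was balanced, with 12 above and 12 below 0 and a median of 0.0023. Ppargc1a, the coactivator PGC-1alpha, read 9.46, 9.28, 9.53, 8.43 and 9.44 under Ctrl and 9.73, 9.42, 10.09, 10.08 and 10.21 under Dox + sACVR2B, a difference of 0.68 (SE 0.18, adjusted p = 0.198 in limma). Ctrl 4 was far below the rest, and without it the difference was 0.50. The 42 measured genes of oxidative phosphorylation, many of them targets of PGC-1alpha, were centred at 0.0037, with 23 above 0. None had an unadjusted p under 0.05 (13.2% of all genes with status). Glycolysis was at a median of 0.01 over 18 genes.

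**Figure D4:**
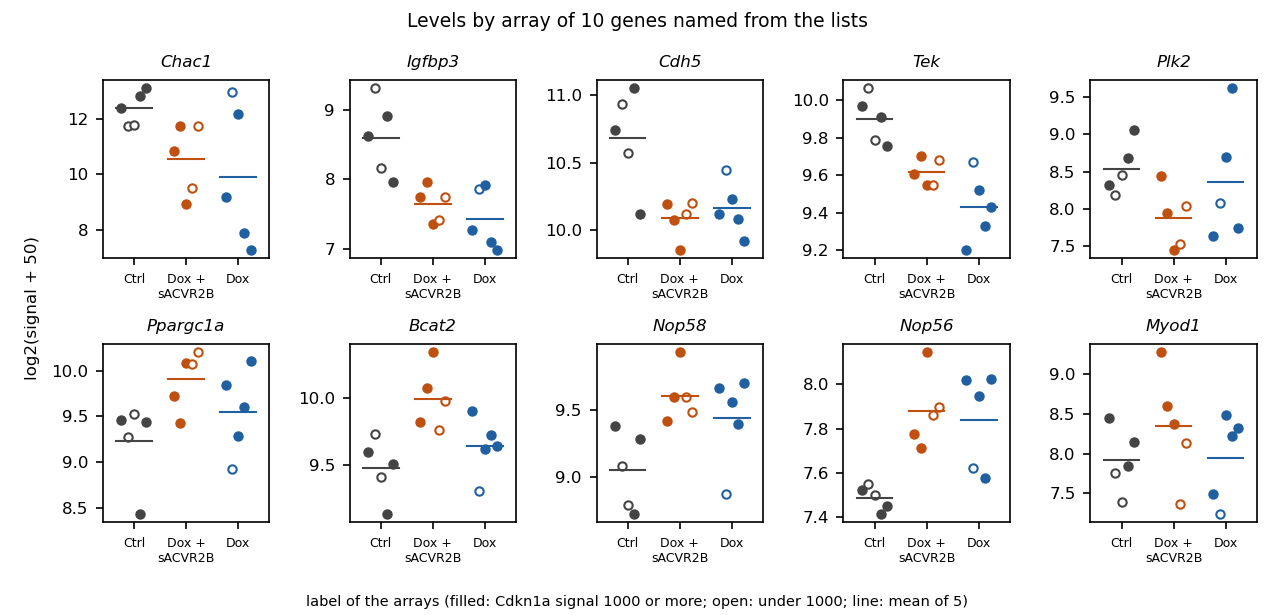
Level of each array, as log2(signal + 50), for 10 genes of the lists under the labels Ctrl, Dox + sACVR2B and Dox. Filled points have a Cdkn1a signal of at least 1000, open points a lower one, and lines are means of 5 arrays. Tek, Bcat2, Nop58 and Nop56 are fully apart between Ctrl and Dox + sACVR2B, while Chac1 overlaps through Dox + sACVR2B 5.

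Myogenic and denervation-type genes were above 0 in 12 of 17, with a median of 0.15 and 3 higher at an unadjusted p under 0.05 (6.72% of all genes). The median was 0.035 among the high and 0.067 among the low arrays, 0.055 without Dox + sACVR2B 3 and 0.031 without Dox + sACVR2B 5. Ncam1, a neural adhesion molecule that muscle re-expresses after denervation, read 7.41, 7.10, 7.49, 7.21 and 7.34 under Ctrl and 7.51, 7.63, 7.42, 8.25 and 7.73 under Dox + sACVR2B, a difference of 0.40 (SE 0.13, adjusted p = 0.246 in limma). Only Dox + sACVR2B 3 of its label lay among the Ctrl arrays. By the median over its probes the difference was 0.0019. Myod1, the myogenic regulator, was at 0.43 (0.26 without Dox + sACVR2B 1) and Mef2c at 0.31, although the median over the probes of Mef2c gave -0.12. Fast contractile genes were below 0 in 12 of 14 with a median of -0.08 and a range of -0.20 to 0.11. None reached an unadjusted p under 0.05 (13.2% of all genes with status). Of these, Pvalb and Myh4 read 14.0 to 14.5 on every array, near the highest signals measured. Compression of differences at such levels was not tested. Slow contractile genes were below 0 in 8 of 13. Of the heat shock genes and chaperones 20 of 29 were above 0, with a median of 0.06 (0.028 without Dox + sACVR2B 4). Dnajb5, a DNAJ co-chaperone, had the largest difference at 0.55 (SE 0.13), but -0.15 by the median over its probes. Proteasome subunits were above 0 in 21 of 34, with a median of 0.03 and a range of -0.25 to 0.33. By the median over probes the list median was 0.0088. With status, 3 were higher (6.72% of all genes) and 1 lower (6.52%) at an unadjusted p under 0.05. The 2 members of smallest p were the activator Psme3 and Psmb7 of the core particle, both at 0.33.

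Interferon response genes were below 0 in 23 of 27, with a median of -0.12 and 5 lower at an unadjusted p under 0.05 (6.52% of all genes). Without Dox + sACVR2B 3 the median was -0.0097, and without Dox + sACVR2B 1 it was -0.18. Bst2, the antiviral protein tetherin, read 7.90, 7.50, 7.34, 8.01 and 8.53 under Ctrl and 7.48, 7.36, 6.86, 7.47 and 7.07 under Dox + sACVR2B, a difference of -0.61 (SE 0.18, adjusted p = 0.215 in limma), with -0.91 among the high and -0.15 among the low arrays. Irf1, an interferon transcription factor, was at -0.34 (-0.09 by the median over probes) and B2m, the light chain of MHC class I, at -0.28 (-0.17 without Dox + sACVR2B 3). Collagens and matrix genes were below 0 in 24 of 34, with a median of -0.04 and 6 lower at an unadjusted p under 0.05 (6.52% of all genes). The median ran from -0.12 without Dox + sACVR2B 1 to -0.014 without Dox + sACVR2B 3. Of these, Ccn1 was at -0.46, Lox, the lysyl oxidase that crosslinks collagen, at -0.43, and Timp1, an inhibitor of matrix proteases, at -0.61 (-0.34 without Ctrl 2). For Lox, Ctrl 2 (10.31) stood apart from the other Ctrl arrays, and without it the difference was -0.29. In the cell cycle list 9 of 23 were above 0. Cdk2, the kinase of S phase entry that p21 inhibits, read 9.77, 9.17, 9.0, 9.62 and 9.94 under Ctrl and 9.28, 9.25, 8.90, 8.85 and 8.91 under Dox + sACVR2B, a difference of -0.46 (SE 0.11, adjusted p = 0.173 in limma), with Ctrl 2 and 3 inside the range of the other label, and -0.21 by the median over probes. Pcna, the sliding clamp of replication forks, was at -0.36, and the cell cycle inhibitor Cdkn1b (p27) at 0.48 (0.29 with an offset of 100). In the IGF, insulin and Akt list 11 of 22 were above 0. Igfbp3 read 8.62, 9.32, 8.16, 8.92 and 7.96 under Ctrl and 7.75, 7.97, 7.36, 7.42 and 7.75 under Dox + sACVR2B, where only Ctrl 5 and Dox + sACVR2B 2 met, and differed by -0.95. Slc2a4, the insulin-regulated glucose transporter GLUT4, was at 0.38 and Irs2, an insulin receptor substrate, at 0.48 (0.30 without Ctrl 4).

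**Figure D5:**
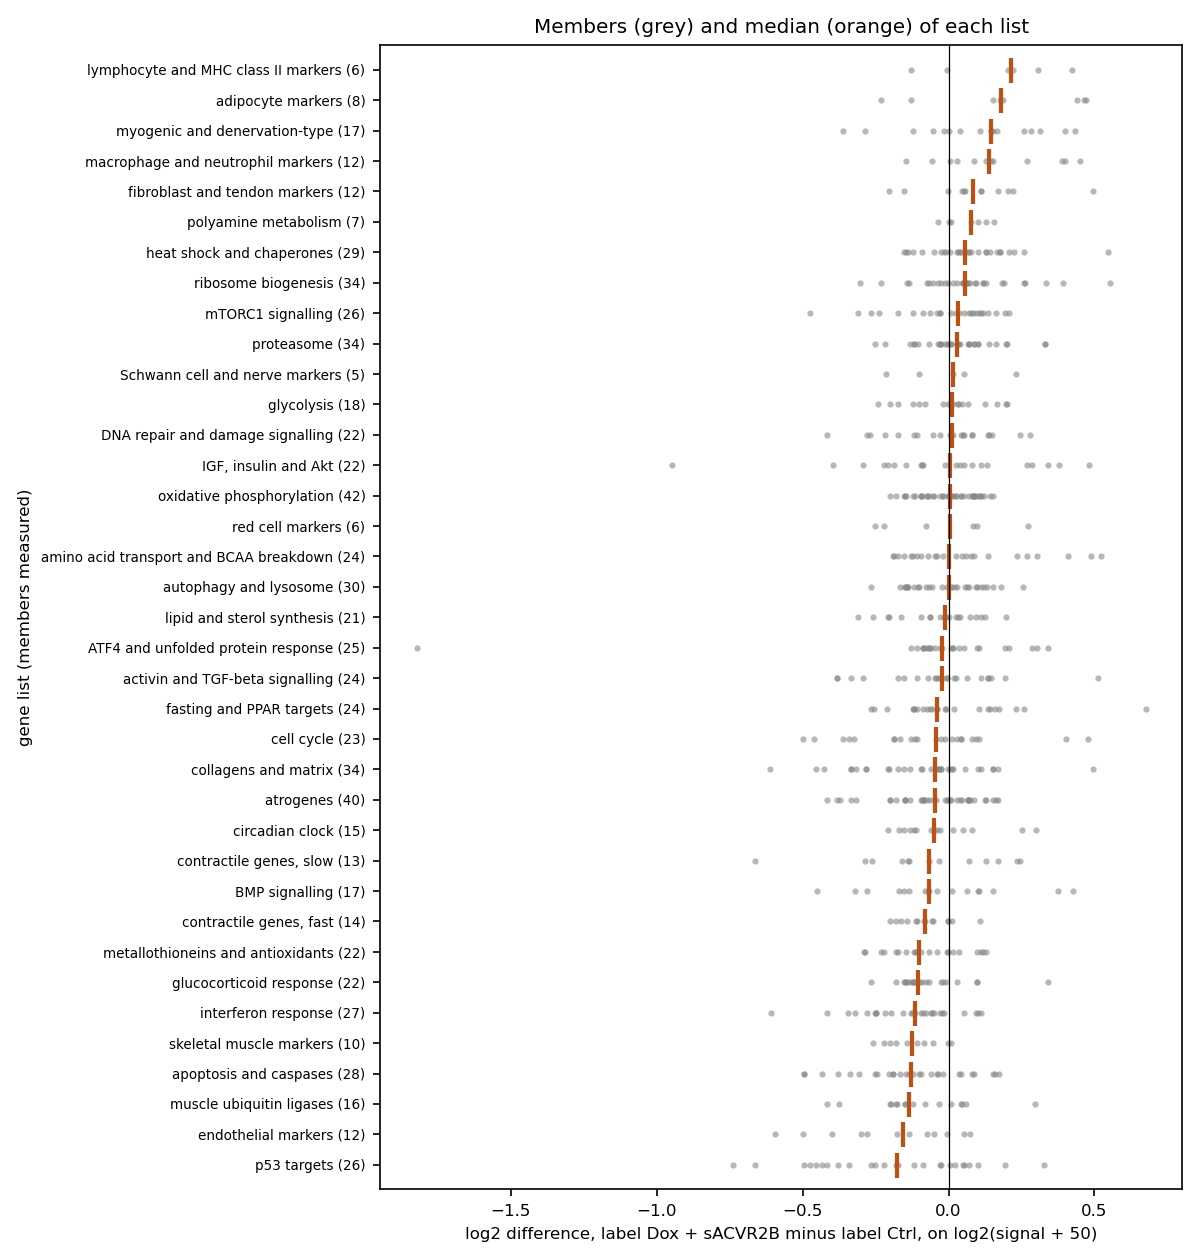
Log2 difference between the labels (Dox + sACVR2B minus Ctrl) of every measured member (grey points) and the median (orange bar) of each gene list with at least 5 measured members, ordered by median, with the number measured in parentheses. Medians run from -0.18 for p53 targets to 0.21 for lymphocyte and MHC class II markers, and Chac1 at -1.82 is the lowest point. Only 6 of the 14 lymphocyte and MHC class II markers on the array were above noise.

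Medians of the lists not described above ran from -0.10 for the glucocorticoid response, with 4 of 22 above 0 (-0.03 without Dox + sACVR2B 1), to 0.08 for fibroblast and tendon markers, with 9 of 12 above 0, apart from some cell type markers. Among these, medians were 0.18 for 8 adipocyte markers, 0.14 for 12 macrophage and neutrophil markers and 0.21 for 6 lymphocyte and MHC class II markers. The last list has 14 markers on the array, of which Cd3e, Cd3g, Cd8a, Cd4, Ms4a1, Ptprc, Nkg7 and Jchain were not above noise. Of the 6 measured, Cd79b was below noise in Ctrl 4 and 5 (5.91 and 5.82). Without Dox + sACVR2B 5 the adipocyte median turned to -0.03, and without Ctrl 3 the macrophage and lymphocyte medians were 0.034 and 0.12. Among the high and the low arrays the adipocyte median was -0.05 and 0.41, and the macrophage median -0.02 and 0.23. Their summed signals overlapped widely between the labels, at 5341 to 9088 and 5960 to 11438 for adipocyte markers and at 3426 to 8536 and 3156 to 7410 for macrophage and neutrophil markers (Ctrl and Dox + sACVR2B). Red cell markers summed to 11875 to 20225 in 4 Dox + sACVR2B arrays and 79388 in Dox + sACVR2B 5, beyond the 19366 to 34290 of Ctrl. All 10 skeletal muscle markers were well measured, and of 10 heart and liver markers Nppa, Nppb, Myl7, Alb, Apoa1, Ttr and Fgb were not above noise. The part of these cell types in the gene values was not tested.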

How the data were processed

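Biotin-labelled total RNA of 15 mice (5 per label) was hybridised by the authors to Sentrix MouseRef-6 v2 bead arrays. The deposited values used here are background-subtracted, quantile-normalised probe intensities on a linear scale, of which 34.0% were below 0. Quantile normalisation gives every array nearly the same distribution, so differences shared by all genes cannot be seen. A further deposited table of signals before normalisation was not used, because its 30 columns of signals and detection values carry names that match no label. Of 45281 probes, 34885 were annotated to 1 gene, 18 to several and 10378 to none.

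Noise was estimated from the values below 0 (SD 7.52), and probes above 12.4 in at least 5 of 15 arrays were kept. This left 21307 probes and, at the brightest probe per gene, 11457 genes on the scale log2(signal + 50). On each array 43.8% to 43.9% of probes were above noise, and the number of arrays limits the precision. The labels were compared with limma 3.58.1 in R 4.3.3 (lmFit and eBayes, Benjamini-Hochberg adjustment over all genes), by label and with Cdkn1a status as covariate, after both fits had been tested on simulated data. Each label is described as 5 mice, and p-values measure the spread between these arrays. Named genes were the 10 of smallest p in each direction, those the study followed, and the 2 of smallest p in each of 38 gene lists. Others were named after their values were seen. The comparison and the lists, among them the atrogenes chosen by the study, were chosen with earlier results of these data known. Alternatives covered the probe rule, noise filter, offset, normalisation, prior, array weights, replicate block, covariate and each array left out. Fits to the arrays of a single Cdkn1a status were added after seeing the data. Promoters are those of RefSeq on GRCm38.p6. Figures were drawn with matplotlib 3.10.9. Arrays labelled Dox were not tested here.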

Additional observations from a re-analysis of the deposited data

Results flagged for a closer look

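Of 200 sets of 5 arrays checked (100 named genes under 2 labels), 8 had an array far from the other 4 of its label, 5 under Ctrl and 3 under Dox + sACVR2B. Chance alone flags about 1 in 20 such sets.

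Ctrl 2 was the outlying array for 3 genes. Its level was 10.31 for Lox, the collagen crosslinking oxidase, with the nearest Ctrl array at 9.5, 8.4 for Fmod (fibromodulin, nearest 9.71) and 8.48 for Chst7 (nearest 8.16). Without it the log2 differences were -0.29 for Lox, 0.17 for Fmod and -0.63 for Chst7, where with it they were -0.43, 0.50 and -0.69. Ctrl 4 stood apart at 8.43 for Ppargc1a (nearest 9.28), and Ctrl 3 at 10.28 for Acvr2b (nearest 10.11).

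Dox + sACVR2B 3 stood apart at 8.41 for Ap2a1 (nearest 8.13) and at 6.42 for Cxcl9 (nearest 6.75), both times farther from Ctrl than the rest of its label. Without it these genes differed by 0.47 and -0.57. Dox + sACVR2B 4 was at 14.15 for Mb, the myoglobin gene, with the nearest array at 14.36, and without it the difference was -0.16.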

How the results depend on the processing

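The count of 0 genes called by limma held under all 24 alternatives by label, with a smallest adjusted p of 0.194 and 665 to 1911 genes at an unadjusted p under 0.05. With Cdkn1a status it held under 23 of 24 (1043 to 2745 genes unadjusted), the exception being the fit without Ctrl replicate 5. Leaving out each array gave 0 to 4 calls with status. By label, the unadjusted count of 1032 was 665 without Dox + sACVR2B 3, 670 without Ctrl 4 and 1911 over all probes. With status 1517 became 2745 over all probes. Among the 6 high arrays alone 0 genes were called (1099 unadjusted, smallest adjusted p 0.509 in limma), and 0 among the 4 low arrays (825 and 0.206).

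The median over the probes of a gene turned the sign of Cdkn1a (-0.17), Mef2c (-0.12), Cebpg (-0.036), Dnajb5 (-0.15), Bpgm (-0.025), Mbp (0.0056), Flt1 (0.029) and Polr1a (0.23) and moved the BMP list median to 0.010. Of 123 named genes with a difference of at least 0.2, it left 27 with under 0.67 times that size or with the sign turned. Array weights turned Vwf (-0.020), Asns (0.0065), Inhba (0.014) and Smad2 (0.0062), and cyclic loess Smad2 (0.0040). The cause was not tested. With single arrays left out, Kit ran from -1.04 to -0.79, Bcl6b from -0.83 to -0.60, Foxo1 from -0.20 to 0.029, Cdkn1a from -0.11 to 0.10, the BMP median from -0.086 to 0.0081 and the IGF, insulin and Akt median from -0.025 to 0.052. Gm5796 ran from -1.14 to -0.73 and Pcdh12 from -1.05 to -0.67. Among genes near 0, Pecam1 ran from -0.096 to 0.019, Flt1 from -0.050 to 0.045, Vwf from -0.034 to 0.12, Kdr from -0.0079 to 0.12, Asns from -0.21 to 0.039, Atf3 from -0.19 to 0.043, Inhba from -0.10 to 0.084, Smad2 from -0.035 to 0.023 and Polr1a from -0.099 to 0.039. Hp ran from -0.0998 to 1.05 and Adipoq from -0.17 to 0.85. In all, 18 of 151 named genes and 16 of 38 list medians turned sign under at least 1 alternative, 15 of the medians with an array left out. Main medians of those 16 lists ran from -0.068 to 0.18, the highest being that of adipocyte markers.

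Replicate numbers did not pair the arrays. Deviations of same-numbered arrays correlated at 0.365, -0.413, -0.0973, -0.245 and -0.289, and no array correlated best with its own number. With the replicate block limma called 0 genes in both fits (820 and 1541 unadjusted).

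Differences of low-signal genes are compressed by the offset.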

Other observations

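Some genes with the largest differences belong to none of the lists and were picked once these were known. None passed in limma. Zmiz1, a transcriptional coactivator, read 8.18, 7.33, 7.20, 6.52 and 8.07 in Ctrl 1 to 5 and 8.53, 8.83, 8.55, 7.91 and 8.76 in Dox + sACVR2B 1 to 5, the highest difference of all genes at 1.05 (SE 0.27 with status), with 1.05 among the high and 1.07 among the low arrays, but 0.15 by the median over its probes. Abcd2, a peroxisomal transporter of very long-chain fatty acids, did not overlap between the labels and was at 0.85. Kitl, the stem cell factor that binds Kit, was at 0.71 while Kit was at -0.88. Without Ctrl 4, Kitl was at 0.45. Kitl was not above noise in all 10 arrays, and its size depends on the offset, at 1.12 with an offset of 26 and 0.42 with 100. Slc16a3, the lactate exporter MCT4, was at 0.69 (0.33 by the median over probes) and Kcnj12, an inward rectifier potassium channel, at 0.72. Stc1, the secreted stanniocalcin 1, did not overlap and was at -0.76. The immediate early genes Fos and Egr1 were at -1.03 and -0.70, with Ctrl 4 and 5 the highest arrays of Fos (11.00 and 11.94).

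Mss51, a muscle gene also known as Zmynd17, took only 2 widely separated levels. It read 8.87, 8.70, 8.85, 9.13 and 8.76 in Ctrl 1 to 5, 9.21, 9.10, 6.49, 6.06 and 9.22 in Dox + sACVR2B 1 to 5, and 6.42, 9.29, 9.29, 6.79 and 6.39 in Dox 1 to 5. The same 5 arrays, Dox + sACVR2B 3 and 4 and Dox 1, 4 and 5, were also the lowest for Chac1 (8.95, 9.51, 9.20, 7.89 and 7.28), whose other 10 arrays read 10.82 to 13.12. These 5 arrays include 1 of low Cdkn1a status (Dox + sACVR2B 4). No array labelled Ctrl was among them. The pattern was noticed in these data and no test of it was made.

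Haptoglobin (Hp) and adiponectin (Adipoq) were highest in Dox + sACVR2B 5 (10.37 and 10.58), the array that also had the highest summed signal of red cell markers. Their differences, 0.66 and 0.47, were -0.15 and -0.54 among the high arrays and 1.87 and 1.99 among the low arrays. Without Dox + sACVR2B 5 they were -0.0998 and -0.17.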
